A study of Mus musculus with 65 samples.

Results

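Cytokine receptor genes were followed in nascent transcription data from MEL cells, a murine erythroleukemia line. The group holds 8 genes (Csf2rb, Csf2rb2, Csf2ra, Epor, Il1rl1, Il4ra, Il6ra and Ifngr1) out of 15020 gene symbols in the tables. They were chosen by name, with earlier results of these data known. Each was read from the transcript with the highest mean in the A485 series, and matched by transcript in the other experiments. PRO-seq labels RNA at polymerases engaged on a gene, so a value reports engaged polymerase and not mature mRNA or protein. Values are the normalised reads that the authors deposited. The series asks how repression by Mtg16 is set up and kept, by its title.

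All 65 samples were Mtg16-FKBP-2XHA MEL cells, in which the corepressor Mtg16 carries an FKBP tag for degradation and an HA tag, so that the DMSO controls carry the tagged protein too. The time course held cells in DMSO, cells given 250 nM dTAGV1 (the degrader, which directs the tagged protein to the proteasome) for 15 min, 30 min, 1 h or 2 h, and cells washed after 2 h of degrader and left for 30 min, 1 h or 2 h. The A485 series held DMSO cells, and cells exposed for 15 min, 30 min or 1 h to the degrader, to 10 µM A485 (which blocks the acetyltransferase activity of p300 and CBP) or to both agents. The LBH589 series held DMSO and 30 min or 1 h of 5 nM LBH589 (panobinostat, a histone deacetylase inhibitor). In the LBH589 washout series, cells had 2 h of degrader, were washed and left for 30 min or 1 h, and were also exposed to LBH589, for which no timing is given. Groups held 3 samples, except 2 for degrader 2 h and washout 1 h in the time course and for A485 30 min and degrader plus A485 30 min. In the gene table of the time course, 2 columns whose names could not be settled and 1 empty column were set aside, which left 2 libraries of the 30 min washout, 1 of the 1 h washout and 2 of the 2 h washout. The labels do not say that libraries of a group came from separate cultures, so tests measure the spread between these libraries, and whether the line is a single clone is not given in the sources used here. In bulk samples, fewer cells that transcribe a gene and less transcription per cell cannot be told apart.

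Receptors of the haematopoietin and interferon families have no kinase of their own. Ligand binding brings receptor chains together and activates the JAK kinases bound to them, which phosphorylate STAT factors that enter the nucleus. Csf2rb encodes the common beta chain that signals for the receptors of IL-3, GM-CSF and IL-5, and Csf2rb2 encodes the mouse beta chain that serves the IL-3 receptor alone. Csf2ra encodes the alpha chain that binds GM-CSF. Epor encodes the erythropoietin receptor, on which red cell precursors depend for survival and growth. Il1rl1 encodes ST2, the receptor of IL-33, which belongs to the IL-1 receptor family and signals through MyD88 and not through a JAK. Il4ra, Il6ra and Ifngr1 encode the ligand-binding chains for IL-4, IL-6 and interferon gamma.

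Promoters of 3 members are shown because they are among the members with the largest changes. Csf2rb is not shown because it had no entry among the listed promoters. The sequences come from RefSeq (GRCm38.p6) and span 250 bases before to 50 after the gene's start. Capitals mark GATA motifs on either strand, spelled AGATAA or with T as the first letter, G as the last, or both, and E-boxes on either strand, spelled CAGCTG with C or G as the fourth letter. Csf2rb2 lies at chr15:78305672-78305971 (minus strand), Epor at chr9:21963527-21963826 (minus strand) and the first of 2 listed Il1rl1 starts at chr1:40429320-40429619 (plus strand).
Csf2rb2: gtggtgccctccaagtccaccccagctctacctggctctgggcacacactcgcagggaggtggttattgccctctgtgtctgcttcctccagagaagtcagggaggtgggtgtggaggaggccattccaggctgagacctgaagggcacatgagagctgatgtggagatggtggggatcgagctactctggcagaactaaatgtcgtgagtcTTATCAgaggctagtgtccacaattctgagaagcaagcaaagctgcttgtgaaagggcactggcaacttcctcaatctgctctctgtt
Epor: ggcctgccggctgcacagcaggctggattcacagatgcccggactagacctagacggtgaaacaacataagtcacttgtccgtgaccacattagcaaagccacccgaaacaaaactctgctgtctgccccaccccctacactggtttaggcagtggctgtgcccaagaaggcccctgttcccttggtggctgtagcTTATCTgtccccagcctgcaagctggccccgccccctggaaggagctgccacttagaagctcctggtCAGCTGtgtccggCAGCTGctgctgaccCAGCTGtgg
Il1rl1: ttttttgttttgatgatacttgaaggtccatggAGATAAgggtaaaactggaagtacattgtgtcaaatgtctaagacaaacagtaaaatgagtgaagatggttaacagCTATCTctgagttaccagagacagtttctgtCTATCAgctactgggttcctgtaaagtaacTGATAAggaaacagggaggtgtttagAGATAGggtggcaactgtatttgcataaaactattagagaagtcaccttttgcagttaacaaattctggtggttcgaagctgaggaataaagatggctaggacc
The Csf2rb2 promoter held 1 GATA motif, the Epor promoter 1 GATA motif and 3 of the E-boxes, and this Il1rl1 promoter 5 GATA motifs. The second Il1rl1 start had 1 GATA motif, and the 2 starts were not matched to the transcript read here. Of the 8 listed promoters of 7 members, 5 held a GATA motif and 3 held such an E-box. Across all 32851 listed mouse promoters, 29.8% held such a GATA motif and 32.9% such an E-box. A match is a description of the letters in this window and nothing more. Csf2rb and Csf2rb2 are neighbouring genes and close paralogs, so reads may be split between them, and how the authors counted reads by strand is not given in the sources used here.

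Counted over 1 transcript per gene, a library of the time course held 9865676 to 38279699 reads and one of the A485 series 4504169 to 37598210. Libraries with LBH589 and their DMSO controls held 17168807 to 27280921 reads, and those of the LBH589 washout 8234035 to 17677266. Of the 11 erythroid marker genes listed, 8 were in the tables and 7 had a mean of at least 10 in every experiment, Gata1, Klf1 and Tal1 among them. Their sum rests mostly on a few genes. In DMSO of the A485 series the highest means were Tal1 (2966), Tfrc (2349) and Gata1 (2104). The globin genes Hbb-bs (6.32) and Hbb-bt (22.4) were low there. Of 8 mast cell markers, 2 were in the tables and neither reached that mean. Summed mast cell markers stayed between 0 and 7.44 normalised reads in every library, with Tpsab1 at 0 throughout the A485, LBH589 and LBH589 washout series. Of 8 granulocyte and macrophage markers 5 were in the tables, and their sum in the time course was 633 to 719 in DMSO and 286 to 327 after 2 h of washout; of 8 lymphoid markers 3 were, with sums of 23.5 to 125 there. The part of these markers in the results was not tested. For 5 libraries of the time course the library name says degrader while the title says A485, and they appear here as libraries labelled degrader, of 1 h or 2 h. A pair of further libraries of the time course stood apart. The library labelled degrader 15 min replicate 2 differed by a mean absolute log2 value of 0.283 from the other 15 min libraries and by 0.139 from the libraries labelled degrader 2 h, over 12720 genes. The library labelled degrader 30 min replicate 3 differed by 0.398 from its own group and by 0.127 from the 30 min washout. Changes at 15 min and 30 min of degrader in the time course are given with and without them. All groups of a table share 1 estimate of spread, so these libraries also enter the tests of the other groups. For those groups, adjusted p-values without them are given for the calls against degrader 2 h and for Il1rl1 at degrader 2 h. The tables were scaled separately, so levels are compared only within an experiment, and each change is relative to the median behaviour of genes in that table.

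The common beta chain gene Csf2rb and its paralog Csf2rb2 were transcribed more at every time with the degrader in the time course. Csf2rb held 3396, 3548 and 3317.5 normalised reads in the 3 DMSO libraries, 8528, 10362 and 7664 after 15 min, and 11025, 11160 and 6394 after 30 min. It reached 12989, 13882 and 14180 in the libraries labelled degrader 1 h and 11075 and 10519 in those labelled degrader 2 h. No library with the degrader overlapped DMSO, and the highest group was 1 h. With limma, the log2 change against DMSO was 1.36 (SE 0.15, adjusted p = 2.09e-05) at 15 min and 1.43 (SE 0.15, adjusted p = 9e-06) at 30 min. It was 2.00 (SE 0.15, adjusted p = 1.99e-07) at 1 h, a 4-fold rise on the log2(value + 1) scale, and 1.66 (SE 0.17, adjusted p = 7.65e-06) at 2 h. Without the libraries that stood apart, the changes were 1.24 (adjusted p = 1.39e-13) at 15 min and 1.70 (adjusted p = 4.55e-16) at 30 min.

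Csf2rb2 showed the same order of groups with larger log2 changes. Its DMSO libraries held 558, 541 and 552 normalised reads. The degrader libraries held 1612, 2639.8 and 1330.2 at 15 min, 2379.5, 2706.5 and 1546 at 30 min, 3338.5, 3541 and 3905 at 1 h and 3091 and 2838 at 2 h. Again every degrader library lay above every DMSO library. The log2 change was 1.69 (SE 0.20, adjusted p = 3.39e-05) at 15 min, 1.97 (SE 0.20, adjusted p = 5.05e-06) at 30 min, 2.70 (SE 0.20, adjusted p = 1.42e-07) at 1 h and 2.43 (SE 0.23, adjusted p = 2.69e-06) at 2 h. Without the libraries that stood apart it was 1.41 (adjusted p = 3.19e-11) at 15 min and 2.203 (adjusted p = 1.35e-14) at 30 min. The sizes for Csf2rb and Csf2rb2 were not tested against each other. The summed level of the 8 erythroid markers went the same way, from 13504 to 14458.4 in DMSO to 27404.3 to 28144.5 at 1 h, and its part in the rise of these receptors was not tested.

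After washout, both beta chain genes lay between the degrader and DMSO levels. Csf2rb held 6672 and 6539.9 normalised reads 30 min after washout, 7172 in the 1 library at 1 h and 5775 and 5359.8 at 2 h. Csf2rb2 held 1666 and 1789.6 at 30 min, 1772.5 at 1 h and 1412 and 1297 at 2 h. Both were lower than at degrader 2 h in every washout library and still above DMSO. Against degrader 2 h, Csf2rb changed by -0.71 (SE 0.19, adjusted p = 0.0196) at 30 min and -0.96 (SE 0.19, adjusted p = 0.00358) at 2 h, and Csf2rb2 by -0.78 (SE 0.25, adjusted p = 0.0349) and -1.13 (SE 0.25, adjusted p = 0.00658). Against DMSO, 2 h of washout left Csf2rb higher by 0.70 (SE 0.17, adjusted p = 0.00513) and Csf2rb2 by 1.30 (SE 0.23, adjusted p = 0.000491). Leaving out any 1 of the 4 libraries compared ended both calls at 30 min, with no gene of the table called by limma. At 2 h the Csf2rb2 call ended without degrader 2 h replicate 1 (adjusted p = 0.0578) or without the library of the second washout column (adjusted p = 0.0643). Against DMSO, the Csf2rb call ended without the library of the first washout column (adjusted p = 0.052).

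**Figure D1:**
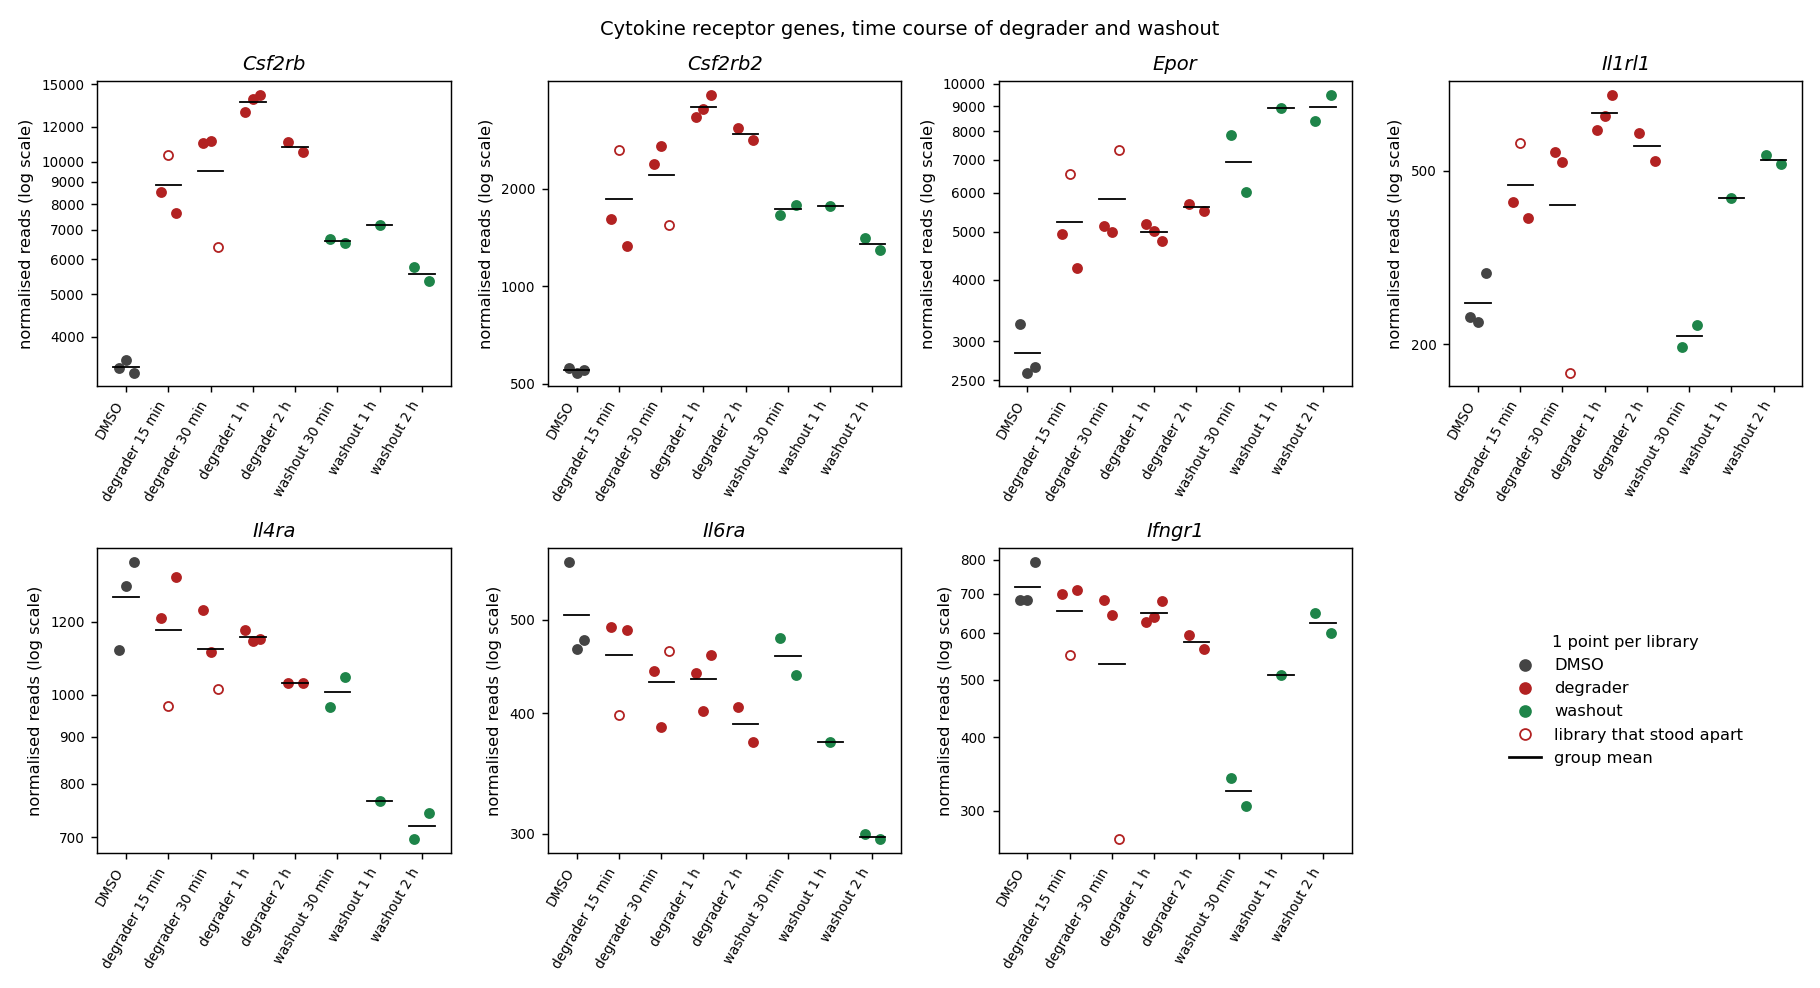
Normalised reads (log scale) of 7 cytokine receptor genes in every library of the time course, by group; each point is a library, bars are group means over all points, and hollow points are the libraries that stood apart. Csf2rb and Csf2rb2 peak at degrader 1 h, Epor is highest after washout, and Il1rl1 and Ifngr1 are low 30 min after washout.

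In the A485 series, a separate experiment, the degrader alone raised Csf2rb at all 3 times and Csf2rb2 at 1 h. Csf2rb went from 1544, 1507 and 1414 normalised reads in DMSO to 2475, 2013.5 and 2034 at 15 min, 2209, 2268 and 2255 at 30 min and 3105.5, 3461 and 3286 at 1 h. All degrader libraries were above DMSO, and those of 1 h were above the rest. The log2 changes were 0.54 (SE 0.084, adjusted p = 1.2e-05), 0.59 (SE 0.084, adjusted p = 1.99e-06) and 1.14 (SE 0.084, adjusted p = 1e-12) in that order. Csf2rb2 went from 160.0, 155 and 145 in DMSO to 219, 165 and 159 at 15 min, 243, 209.7 and 181 at 30 min and 371, 379 and 374 at 1 h. Its 15 min libraries overlapped DMSO. Csf2rb2 rose by 1.28 (SE 0.18, adjusted p = 1.06e-06) at 1 h, while its changes of 0.22 (SE 0.18, adjusted p = 0.455) and 0.45 (SE 0.18, adjusted p = 0.0757) at the earlier times were not called. The change at 30 min was called with edgeR (adjusted p = 0.00553), DESeq2 (0.00673) and with only the compared groups in the fit (0.0114). The time course and the A485 series were normalised apart, and their sizes were not tested against each other.

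A485 was followed by a steep loss of Csf2rb reads within 15 min. Csf2rb held 288, 362 and 285 normalised reads after 15 min of A485, 148 and 158 after 30 min and 121, 121 and 136 after 1 h, against 1488 ± 66.7 (SD, n = 3) in DMSO. The log2 change was -2.26 (SE 0.084, adjusted p = 8.44e-22), -3.27 (SE 0.093, adjusted p = 3.77e-25) and -3.56 (SE 0.084, adjusted p = 5.44e-28), so that 0.0851 times the DMSO level was left at 1 h. Csf2rb2 fell by smaller log2 amounts, with 78.5, 77.3 and 86.8 normalised reads at 15 min, 43.4 and 31.8 at 30 min and 23, 47.4 and 38.2 at 1 h. Its log2 change was -0.92 (SE 0.18, adjusted p = 5.57e-05), -2.02 (SE 0.20, adjusted p = 1.7e-10) and -2.11 (SE 0.18, adjusted p = 2.73e-12). The libraries of A485 1 h had 4504169, 8867091 and 7107122 reads over all genes, among the 6 shallowest of the 28 libraries, and Csf2rb2 rested there on 8, 33 and 21 reads. A485 15 min carries the replicate numbers of DMSO (4 to 6), while A485 and both agents at 30 min and 1 h carry numbers 1 to 3; the part of these number sets in the later values was not tested. The summed level of the 8 erythroid markers moved the same way, from 8602 to 8926 in DMSO to 3121.5 to 3251 after 15 min of A485 and 2814 to 2919 after 1 h, and its part in the fall of these receptors was not tested.

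With A485 present, the degrader still raised both beta chain genes, from the lower level. Csf2rb held 408, 437 and 492 normalised reads after 15 min of both agents, 296 and 317 after 30 min and 293, 325 and 288 after 1 h. Every one of these libraries was above those of A485 alone at the same time and below every DMSO library. Against A485 alone, the log2 change of Csf2rb was 0.52 (SE 0.084, adjusted p = 0.000202) at 15 min, 0.9983 (SE 0.10, adjusted p = 3.65e-08) at 30 min and 1.26 (SE 0.084, adjusted p = 2.14e-13) at 1 h. Csf2rb2 with both agents held 79.4, 96.6 and 80.6 at 15 min, 70.8 and 70 at 30 min and 98, 105 and 78.4 at 1 h. It rose by 1.40 (SE 0.18, adjusted p = 7.82e-07) at 1 h, changed by 0.076 (SE 0.18, adjusted p = 1) at 15 min, which was not called, and rose by 0.90 (SE 0.22, adjusted p = 0.022) at 30 min. The 30 min call ended with edgeR (adjusted p = 0.216), with DESeq2 (0.142), with only the compared groups in the fit (0.239) and without A485 30 min replicate 2, degrader plus A485 30 min replicate 1 or degrader plus A485 30 min replicate 2 (0.0588 to 0.248). The interaction asks whether the degrader's log2 change differs with A485. For Csf2rb it was -0.023 (SE 0.12, adjusted p = 0.956) at 15 min, 0.41 (SE 0.13, adjusted p = 0.0517) at 30 min and 0.12 (SE 0.12, adjusted p = 0.592) at 1 h, and for Csf2rb2 at 1 h 0.12 (SE 0.25, adjusted p = 0.822). None of these passed the threshold, which does not show the changes to be alike. The Csf2rb interaction at 30 min was called with a minimum mean of 50 (adjusted p = 0.0494) and with only the compared groups in the fit (0.0132).

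**Figure D2:**
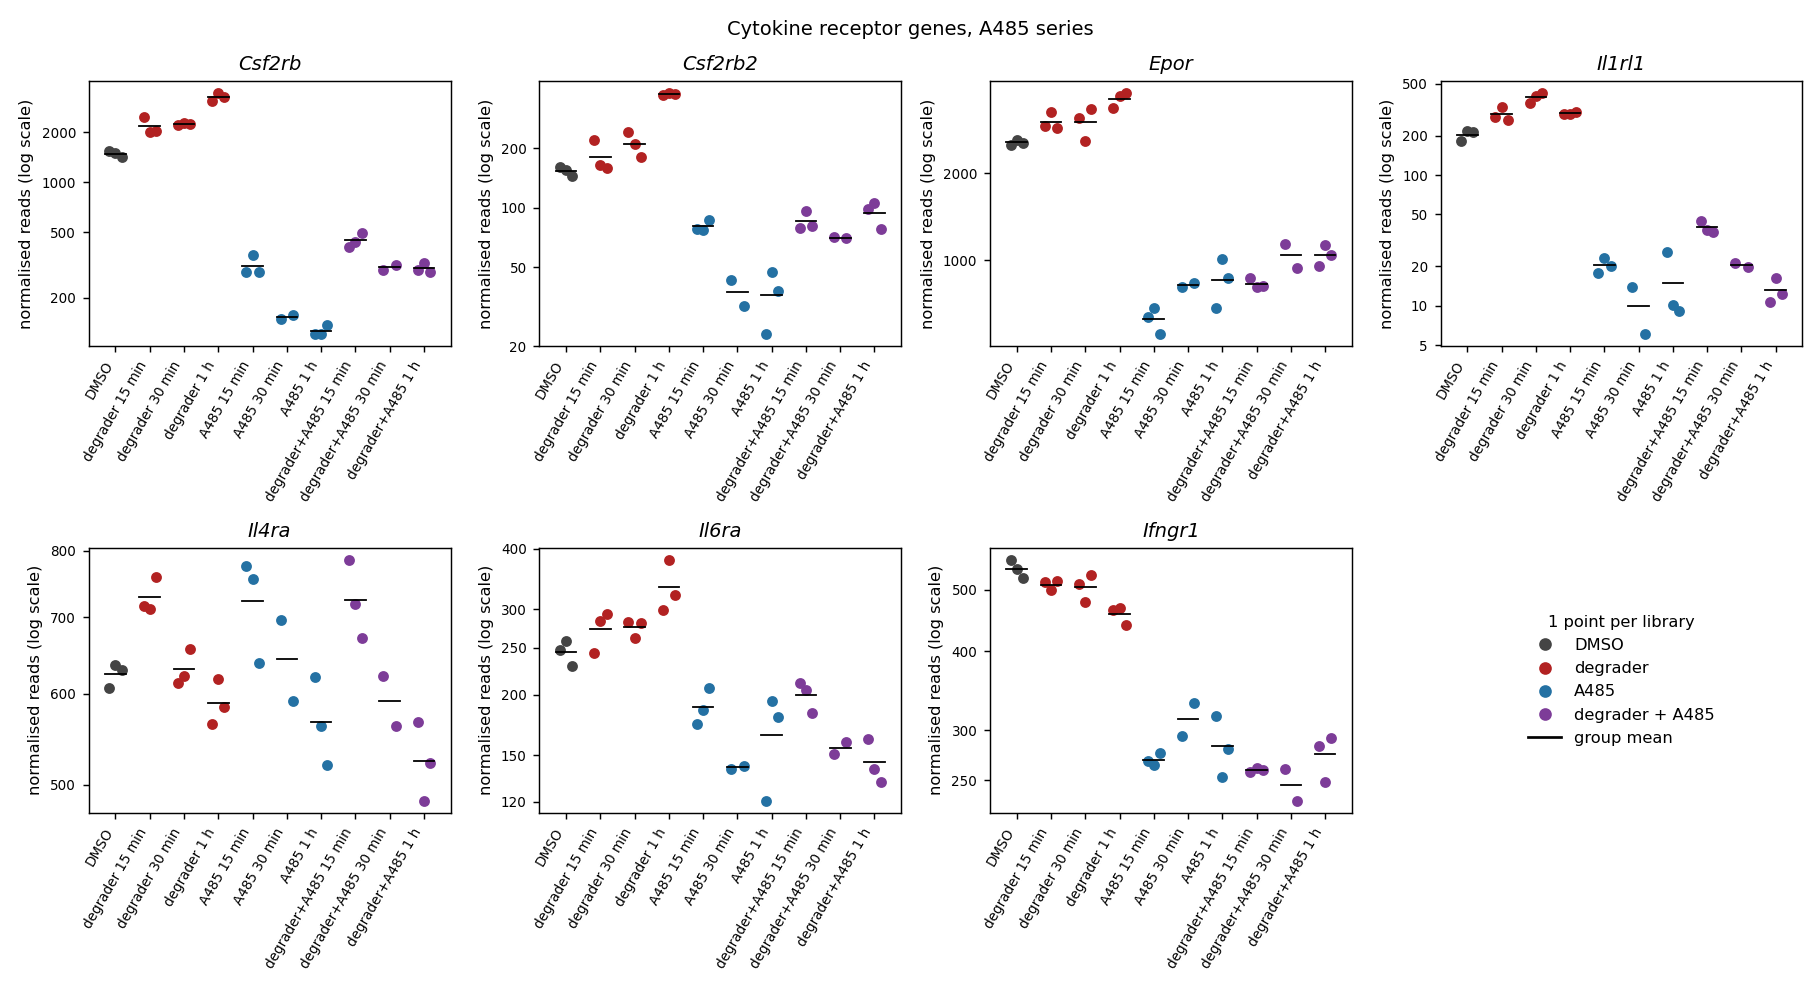
Normalised reads (log scale) of 7 cytokine receptor genes in every library of the A485 series, by group; each point is a library and bars are group means. All A485 libraries of Csf2rb, Csf2rb2, Epor, Il1rl1 and Ifngr1 lie below DMSO, and Il4ra overlaps DMSO at 30 min and 1 h.

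LBH589 lowered both beta chain genes by little. Csf2rb held 4501, 4309.6 and 4267 normalised reads in DMSO, 4080.4, 3942 and 4035 after 30 min of LBH589 and 3922, 3935 and 3820 after 1 h. Csf2rb2 held 775, 779 and 824 in DMSO, 663, 624 and 656 at 30 min and 666, 639.8 and 667 at 1 h. The LBH589 libraries lay below DMSO for both genes. Csf2rb changed by -0.12 (SE 0.033, adjusted p = 0.00602) and -0.16 (SE 0.033, adjusted p = 8.51e-05), and Csf2rb2 by -0.29 (SE 0.054, adjusted p = 8.22e-05) and -0.27 (SE 0.054, adjusted p = 6.66e-05). Without DMSO replicate 7, Csf2rb at 30 min was not called (adjusted p = 0.0597). In the LBH589 washout series, Csf2rb was 2216, 2284 and 2408 at 30 min and 2741, 2251 and 2416.5 at 1 h, and Csf2rb2 481, 595 and 607 at 30 min and 758, 603 and 640.2 at 1 h. The 2 times overlapped for both genes, and neither change was called, at 0.097 (SE 0.086, adjusted p = 0.432) for Csf2rb and 0.25 (SE 0.13, adjusted p = 0.168) for Csf2rb2.

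Csf2ra, the alpha chain gene that partners the common beta chain, was near the floor of detection. It held 6.95 to 23.4 normalised reads over the 19 libraries of the time course, from 5 to 22 reads each. Its mean passed the minimum of 10 in the time course alone, and it was not tested elsewhere. It held 11.2, 14.7 and 23.4 in DMSO and 6.95 and 8.56 at degrader 2 h, and that log2 change of -0.94 (SE 0.35, adjusted p = 0.122) was not called. In the other 3 experiments no library held more than 11 reads of it. A change in Csf2ra was not detectable at this depth.

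Epor, the erythropoietin receptor gene, rose with the degrader and stayed up after washout. It held 3249, 2594 and 2662 normalised reads in DMSO, 4955, 6549 and 4229 after 15 min, 5139.9, 5005 and 7341 after 30 min, 5199, 5026 and 4800.3 after 1 h and 5702.5 and 5521 after 2 h. All these degrader libraries were above DMSO, and the libraries that stood apart were the highest of their groups. The log2 changes were 0.87 (SE 0.16, adjusted p = 0.0017), 1.02 (SE 0.16, adjusted p = 0.000304), 0.83 (SE 0.16, adjusted p = 0.00184) and 0.99 (SE 0.18, adjusted p = 0.00127). Without the libraries that stood apart, they were 0.70 (adjusted p = 1.13e-05) at 15 min and 0.85 (adjusted p = 6.99e-07) at 30 min. Washout libraries held 7858 and 6020.2 at 30 min, 8919 at 1 h and 8410 and 9485 at 2 h, all above degrader 2 h. Epor was higher 2 h after washout than at degrader 2 h by 0.67 (SE 0.19, adjusted p = 0.0258), a call that ended when any 1 of the 4 libraries was left out (adjusted p of 0.0788 to 0.17), and higher than DMSO by 1.66 (SE 0.18, adjusted p = 9.92e-06). At this time the beta chain genes were lower than at degrader 2 h. At 30 min the change of 0.29 (SE 0.19, adjusted p = 0.269) was not called; it was called without the libraries that stood apart (adjusted p = 0.0219) and with only the compared groups in the fit (0.0196).

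In the A485 series, Epor rose with 1 h of degrader and fell with A485. It held 2509.7, 2613 and 2553 normalised reads in DMSO, 2918, 3254 and 2863 after 15 min of degrader, 3115, 2577 and 3335 after 30 min and 3368, 3689 and 3788 after 1 h. The change was called at 1 h, at 0.50 (SE 0.097, adjusted p = 0.000178), and not at 15 min, at 0.23 (SE 0.097, adjusted p = 0.101), nor at 30 min, at 0.23 (SE 0.097, adjusted p = 0.0988). With edgeR or with only the compared groups in the fit, both earlier changes were called (adjusted p of 1.23e-05 to 0.0395). A485 alone left 635, 687 and 556 at 15 min, 812 and 834 at 30 min and 683, 1015 and 872 at 1 h. All these libraries were below DMSO, and those of 15 min and 1 h overlapped each other. The log2 changes were -2.03 (SE 0.097, adjusted p = 9.54e-19), -1.64 (SE 0.11, adjusted p = 5.7e-15) and -1.60 (SE 0.097, adjusted p = 3.95e-16). With both agents it held 869, 809 and 815 at 15 min, 1144 and 938 at 30 min and 958, 1134 and 1046 at 1 h. Against A485 alone this was higher by 0.41 (SE 0.097, adjusted p = 0.0221) at 15 min, a call that ended without any 1 of 5 libraries (all but A485 15 min replicate 5; adjusted p of 0.0691 to 0.238) and without the filter (0.0634). It was not called at 30 min, at 0.33 (SE 0.12, adjusted p = 0.163), or 1 h, at 0.30 (SE 0.097, adjusted p = 0.052).

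LBH589 lowered Epor at both times. It held 3319, 3231 and 3093 normalised reads in DMSO, 2361, 2528 and 2600.2 at 30 min and 2409, 2142 and 2420.2 at 1 h. The log2 changes were -0.37 (SE 0.044, adjusted p = 1.52e-07) and -0.47 (SE 0.044, adjusted p = 1.67e-10), with no overlap between groups. Summed erythroid markers moved alike, from 14382 to 14715.5 in DMSO to 10971.7 to 11107.3 after 1 h of LBH589, and their part in it was not tested. Epor in the LBH589 washout series went from 2612.5, 2193.5 and 2212 at 30 min to 3274.5, 3399.8 and 2732.5 at 1 h, a rise of 0.42 (SE 0.10, adjusted p = 0.0173). That call ended without washout 30 min replicate 2 or 3 or washout 1 h replicate 1 (adjusted p of 0.0554 to 0.0899).

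Il1rl1, the IL-33 receptor gene, spanned 5.25 log2 units over the groups of the A485 series, the widest of the 7 members tested there. It held 230.5, 225 and 291 normalised reads in DMSO of the time course, 423, 577 and 389.7 after 15 min, 552, 524 and 172 after 30 min, 621, 668 and 745 after 1 h and 609.6 and 527 after 2 h. Only the library labelled degrader 30 min replicate 3 lay under DMSO. The rise was called at 1 h, at 1.45 (SE 0.31, adjusted p = 0.00439), and at 2 h, at 1.19 (SE 0.34, adjusted p = 0.0377), and was 0.88 (SE 0.31, adjusted p = 0.115) at 15 min and 0.57 (SE 0.31, adjusted p = 0.221) at 30 min. Without the libraries that stood apart, both earlier times were called, at 0.71 (adjusted p = 6.73e-05) and 1.12 (adjusted p = 1.41e-07). The change at 2 h, of the same size, then had an adjusted p of 3.56e-08. With no library left out, the 15 min change was called with DESeq2 (adjusted p = 0.0254) and with only the compared groups in the fit (0.0217). The call at 2 h ended when any 1 of its 5 libraries was left out (adjusted p of 0.058 to 0.255).

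After 30 min of washout Il1rl1 lay just below the DMSO libraries, and it was above them at 1 h and 2 h. The libraries held 197 and 222 normalised reads at 30 min, 432 in the 1 library at 1 h and 542 and 517 at 2 h. Against degrader 2 h the log2 change was -1.44 (SE 0.38, adjusted p = 0.0185) at 30 min and -0.098 (SE 0.38, adjusted p = 0.89) at 2 h. Without the libraries that stood apart, the change at 30 min had an adjusted p of 1.14e-08. Against DMSO, Il1rl1 was higher at 2 h of washout by 1.09 (SE 0.34, adjusted p = 0.02). The call at 30 min ended when any 1 of the 4 libraries was left out (adjusted p of 0.0752 to 0.118), and the last call ended without DMSO replicate 1 or 2 or either washout library (adjusted p of 0.052 to 0.103).

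A485 took Il1rl1 to a few reads. It held 182, 216 and 215 normalised reads in DMSO, 17.8, 23.2 and 20.2 after 15 min of A485, 14 and 6.07 after 30 min and 25.8, 10.1 and 9.09 after 1 h. These last came from 11 and 4 reads at 30 min and 9, 7 and 5 reads at 1 h, so their order is not resolved at this depth. The log2 change was -3.26 (SE 0.25, adjusted p = 5.75e-13), -4.31 (SE 0.28, adjusted p = 5.46e-15) and -3.83 (SE 0.25, adjusted p = 5.03e-15). The degrader alone gave 280.2, 329 and 264 at 15 min, 356, 400.0 and 423 at 30 min and 293, 293 and 302 at 1 h, all above DMSO. The rise was called at 30 min, at 0.94 (SE 0.25, adjusted p = 0.00702), and was 0.51 (SE 0.25, adjusted p = 0.187) at 15 min and 0.54 (SE 0.25, adjusted p = 0.121) at 1 h. With edgeR or DESeq2 on the recovered reads the changes at 15 min and 1 h were called too (adjusted p of 0.000293 to 0.00153). With both agents Il1rl1 held 44.5, 38.1 and 36.7 at 15 min, 21.2 and 19.7 at 30 min and 10.7, 16.5 and 12.3 at 1 h. Against A485 alone the change was 0.93 (SE 0.25, adjusted p = 0.0838), 1.06 (SE 0.31, adjusted p = 0.0772) and -0.049 (SE 0.25, adjusted p = 0.943), and the first was called with edgeR (adjusted p = 0.0108) and DESeq2 (0.00245).

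**Figure D3:**
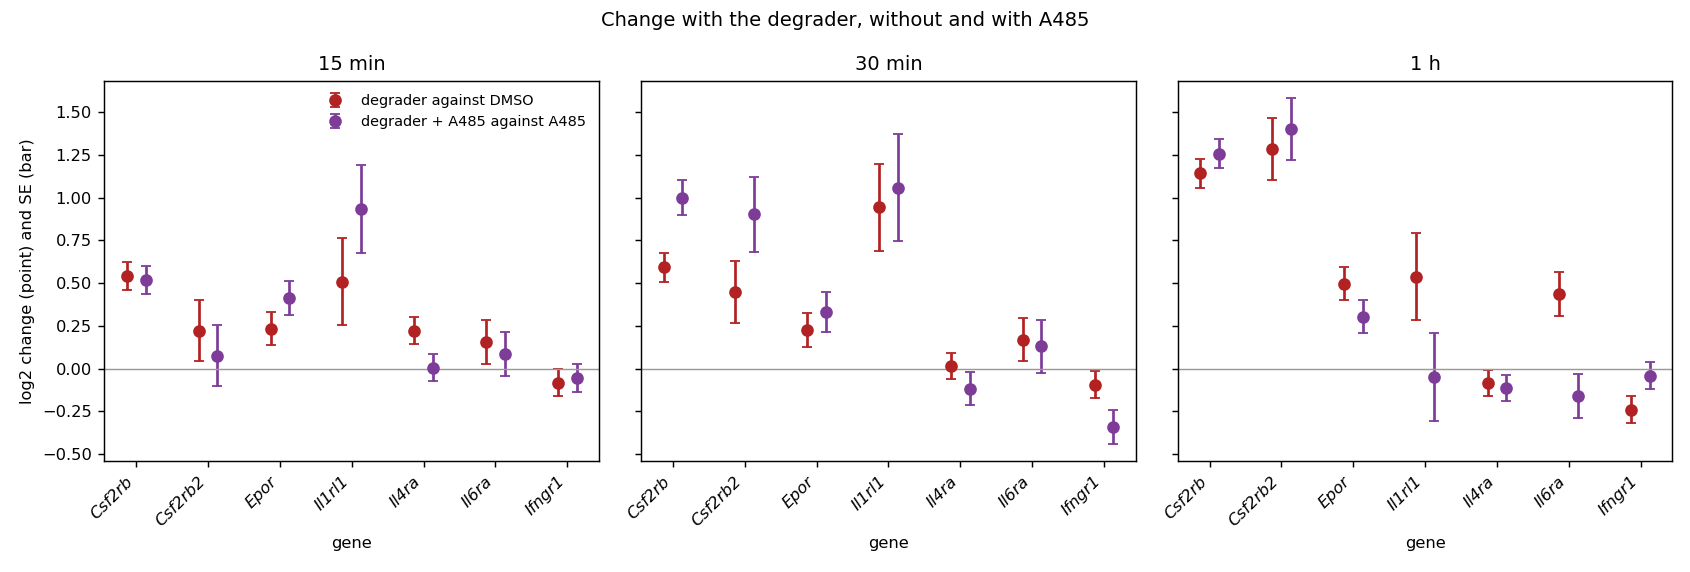
Log2 change with the degrader against DMSO (red) and with degrader plus A485 against A485 (purple) at 15 min, 30 min and 1 h; points are estimates and bars their SE. At 1 h Csf2rb is at 1.14 without and 1.26 with A485, and Csf2rb2 at 1.28 and 1.40. Il6ra is at 0.44 without and -0.16 with A485.

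LBH589 also lowered Il1rl1, from 156, 116 and 152 normalised reads in DMSO to 80.1, 95 and 98.5 at 30 min and 99.4, 91.5 and 115 at 1 h. The groups did not overlap. The log2 changes were -0.62 (SE 0.13, adjusted p = 0.000561) and -0.46 (SE 0.13, adjusted p = 0.00369). In the LBH589 washout series it held 46.4, 65.6 and 64.7 at 30 min and 40.5, 31.6 and 63.4 at 1 h, which overlapped and gave -0.42 (SE 0.29, adjusted p = 0.316).

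Il4ra, Il6ra and Ifngr1 encode ligand-binding chains. In the limma fit of all groups and libraries they were not called with the degrader in the time course. With only the compared groups in the fit, all 3 were called lower at 2 h (adjusted p of 0.0187 to 0.0233). DESeq2 on all libraries called Il6ra lower at 2 h (0.0439). All 3 were called lower at 2 h without the libraries that stood apart (adjusted p of 0.00556 to 0.00677) and Il6ra also at 30 min (0.0469). Il4ra, the chain for IL-4, stayed near its DMSO level in the A485 series, at 607 to 636 normalised reads in DMSO, 564 to 759 with the degrader, 519.7 to 776 with A485 and 484 to 785 with both. It was the member that A485 did not lower: it was higher at 15 min, by 0.21 (SE 0.078, adjusted p = 0.0242), and the changes were 0.039 (SE 0.087, adjusted p = 0.718) at 30 min and -0.14 (SE 0.078, adjusted p = 0.114) at 1 h. The call at 15 min ended without DMSO replicate 4 or A485 15 min replicate 4 or 5 (adjusted p of 0.0773 to 0.14). The degrader gave 0.22 (SE 0.078, adjusted p = 0.0449) at 15 min, a call that ended without any 1 of its 6 libraries (adjusted p of 0.0751 to 0.153), without the filter (0.06) and with TMM scaling (0.0548). In the time course Il4ra fell after washout, from 1117, 1313 and 1394 in DMSO and 1029 and 1029 at degrader 2 h to 697 and 744 at 2 h of washout. That was -0.51 (SE 0.13, adjusted p = 0.0164) against degrader 2 h, a call lost without any 1 of the 4 libraries (adjusted p of 0.0708 to 0.116), and -0.82 (SE 0.12, adjusted p = 0.000158) against DMSO.

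Il6ra differed in sign between the 2 experiments with the degrader, a difference that was not tested. In the time course it held 574, 467 and 477 normalised reads in DMSO, 440.1, 402 and 459.6 at 1 h and 406 and 373 at 2 h, with changes of -0.22 (SE 0.11, adjusted p = 0.268) and -0.37 (SE 0.13, adjusted p = 0.0813). In the A485 series it held 248, 258 and 229 in DMSO and 299, 379 and 320.3 after 1 h of degrader, a rise of 0.44 (SE 0.13, adjusted p = 0.0103). That call ended without DMSO replicate 6 (adjusted p = 0.0521) or degrader 1 h replicate 5 (0.0861). A485 lowered it to 121 to 206 over the 3 times, with changes of -0.38 (SE 0.13, adjusted p = 0.0124), -0.79 (SE 0.14, adjusted p = 1.68e-05) and -0.60 (SE 0.13, adjusted p = 0.000134). The first of these ended without DMSO replicate 5 or A485 15 min replicate 4 (adjusted p of 0.0511 and 0.061). With both agents at 1 h it held 162, 141 and 132, and the interaction at 1 h was -0.60 (SE 0.18, adjusted p = 0.0265), the single interaction called among the members. That call ended with only the compared groups in the fit (adjusted p = 0.0743) and without 7 of the 12 libraries compared in turn (DMSO replicates 4 and 6, degrader 1 h replicate 5, A485 1 h replicates 2 and 3, and degrader plus A485 1 h replicates 2 and 3; 0.0511 to 0.091). LBH589 raised Il6ra, from 452, 499.7 and 515 in DMSO to 596, 663 and 576 at 30 min and 740.2, 746 and 727 at 1 h, by 0.32 (SE 0.063, adjusted p = 0.000165) and 0.59 (SE 0.063, adjusted p = 1.68e-09). After 2 h of washout in the time course it was below DMSO, at 299.98 and 296, a change of -0.75 (SE 0.13, adjusted p = 0.000342).

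Ifngr1 fell with A485 and dipped early after washout. In the A485 series it held 558, 539.7 and 522 normalised reads in DMSO and 253 to 331 over the A485 libraries, with changes of -0.9991 (SE 0.08, adjusted p = 1.01e-12), -0.79 (SE 0.089, adjusted p = 2.88e-09) and -0.94 (SE 0.08, adjusted p = 3.1e-12). After 1 h of degrader it held 465, 467 and 439, a change of -0.24 (SE 0.08, adjusted p = 0.0245), which was lost without DMSO replicate 4 or 5 or degrader 1 h replicate 6 (adjusted p of 0.0589 to 0.0974). In the time course it held 596 and 564 at degrader 2 h, 341 and 306 after 30 min of washout and 649.6 and 601 after 2 h. The dip at 30 min was -0.84 (SE 0.29, adjusted p = 0.048), lost without any 1 of the 4 libraries (adjusted p of 0.131 to 0.187), without the filter (0.0604) and with TMM scaling (0.0509). The library labelled degrader 30 min replicate 3 held 268 normalised reads of Ifngr1, against 684 and 645 in the other 2 libraries of its group. Without the libraries that stood apart, the dip at 30 min of washout had an adjusted p of 2.04e-07. LBH589 left Ifngr1 at 554, 586 and 543 at 30 min, near the 548, 552 and 541 of DMSO, and raised it to 793, 660.3 and 787 at 1 h, by 0.44 (SE 0.064, adjusted p = 5.38e-07). LBH589 for 1 h also gave 1053.5, 951 and 950.4 of Il4ra against 792, 916 and 886 in DMSO, a rise of 0.19 (SE 0.059, adjusted p = 0.00626) that was lost without DMSO replicate 7 or LBH589 1 h replicate 1 (adjusted p of 0.0793 and 0.0583).

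**Figure D4:**
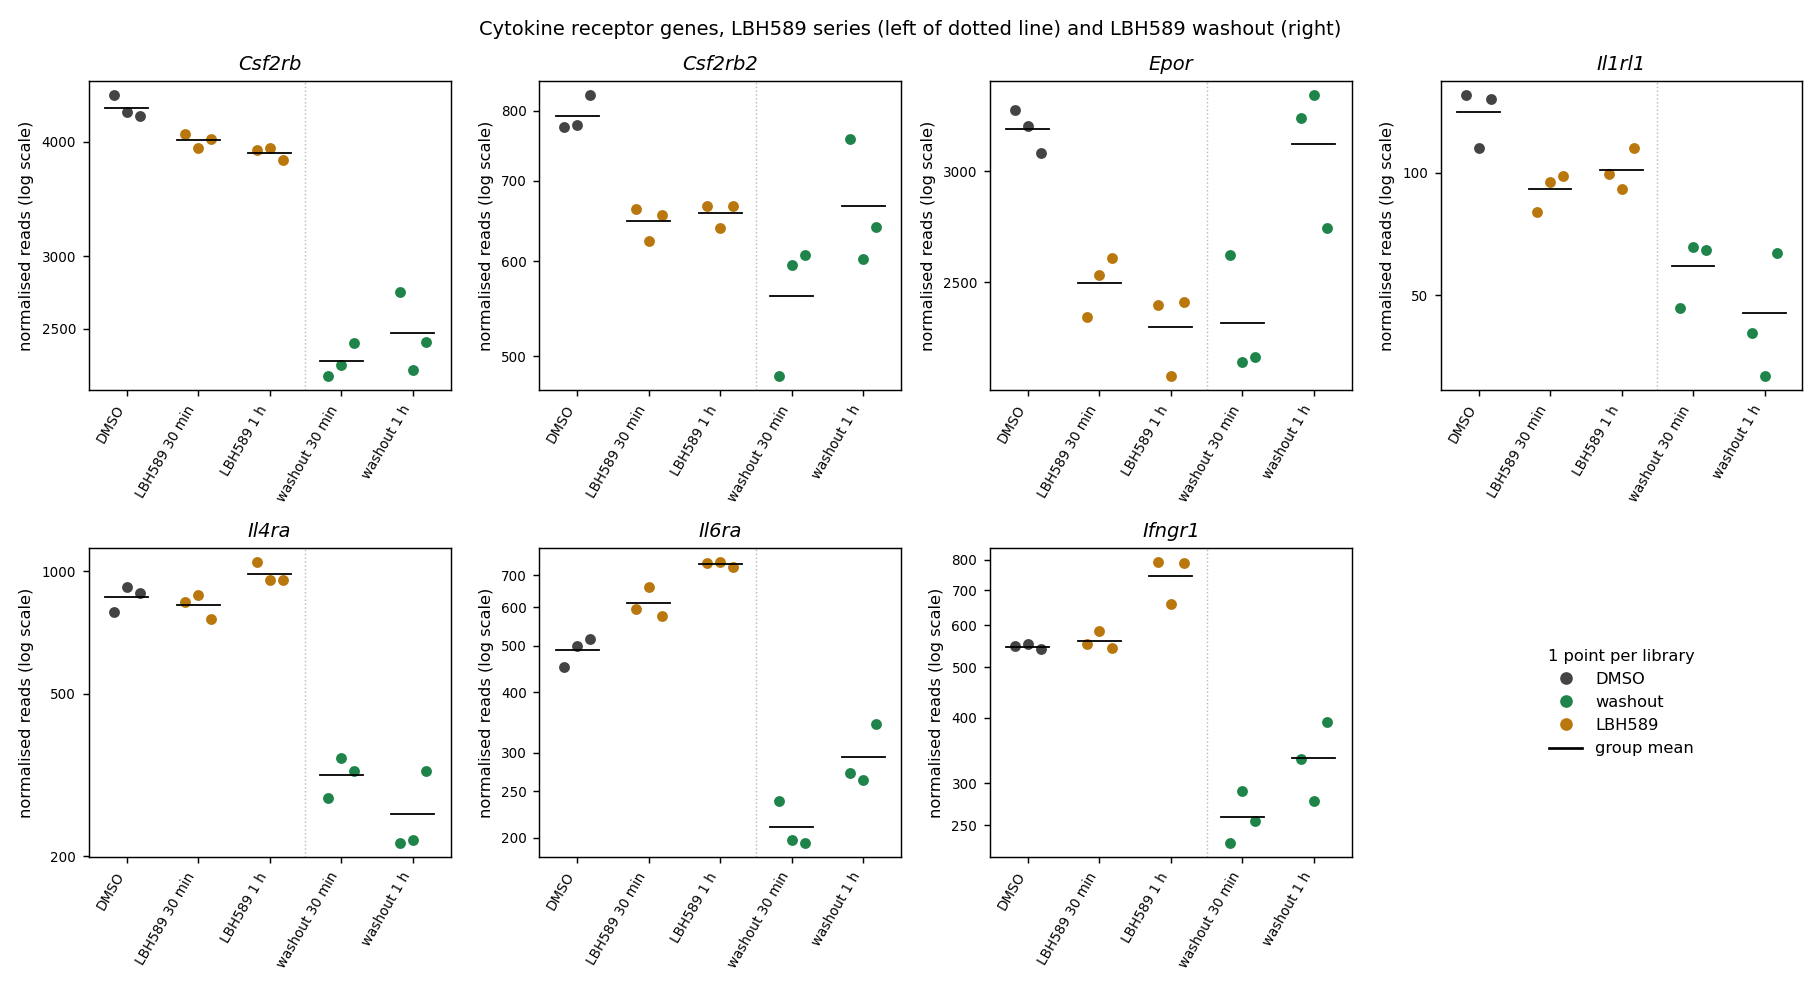
Normalised reads (log scale) of 7 cytokine receptor genes in every library of the LBH589 series (left of the dotted line) and the LBH589 washout (right); each point is a library and bars are group means, and levels are not comparable across the dotted line. Csf2rb, Csf2rb2, Epor and Il1rl1 are lower with LBH589 at both times, Il6ra is higher, and Ifngr1 is higher at 1 h.

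Il6ra rose in the LBH589 washout series from 238, 198 and 195 normalised reads at 30 min to 273, 264 and 344 at 1 h, by 0.47 (SE 0.15, adjusted p = 0.0439). The call was lost without washout 30 min replicate 1, 2 or 3 or washout 1 h replicate 1 (adjusted p of 0.0567 to 0.16) and without the filter (0.0523). Il4ra held 277, 349 and 324 at 30 min and 215, 219.7 and 324 at 1 h, a change of -0.34 (SE 0.17, adjusted p = 0.174), and was called lower without washout 1 h replicate 3 (adjusted p = 0.00246). Ifngr1 held 231, 289.7 and 255 at 30 min and 334, 278 and 392 at 1 h, a change of 0.36 (SE 0.15, adjusted p = 0.106). Without washout 1 h replicate 3 Il1rl1 was called lower (adjusted p = 0.036), and without washout 1 h replicate 2 Ifngr1 was called higher (0.0422).

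Counted over the members, the degrader raised part of the group in each experiment. Comparisons within an experiment share their DMSO libraries, so their counts are not independent. The members were chosen with earlier results of these data known, so counts beside the share of all genes are a description and not a test. In the time course, 3 of 8 members were called higher at 15 min, when 5.89% of all 12720 genes tested were called higher and 1.04% lower. At 30 min 3 were called higher, against 8.69% of genes higher and 5.17% lower. At 1 h and 2 h 4 were called higher, against 8.13% of genes higher and 3.13% lower at 1 h and 6.77% of genes higher and 2.63% lower at 2 h. The members' median log2 change was 0.37, 0.22, 0.35 and 0.34, while the median over all genes lay between -0.017 and 0.023 in every comparison. Without the libraries that stood apart, 4 members were called at 15 min, 5 at 30 min (Il6ra lower among them) and 7 at 2 h, where Il4ra, Il6ra and Ifngr1 were then called lower. The number of all genes called was also larger without them, 3536 against 881 at 15 min.

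After washout, 4 of 8 members were called lower at 30 min than at degrader 2 h, against 10.5% of genes higher and 13.8% lower. At 2 h 3 were lower and 1 higher, against 8.98% of genes higher and 8.3% lower. Against DMSO, 2 h of washout left 4 higher and 2 lower, against 21% of genes higher and 17.5% lower. The members' medians were -0.37, -0.24 and 0.32. Without the libraries that stood apart, the calls against degrader 2 h kept their log2 changes and had lower adjusted p. At 30 min these were 2.54e-09 (Csf2rb), 2.93e-07 (Csf2rb2), 1.14e-08 (Il1rl1) and 2.04e-07 (Ifngr1). At 2 h they were 1.34e-10 (Csf2rb), 5.37e-09 (Csf2rb2), 3.25e-05 (Epor) and 8.14e-05 (Il4ra). Epor was then also called higher at 30 min of washout than at degrader 2 h, at 0.29 (adjusted p = 0.0219). Further calls without them were Il6ra, at -0.38 (adjusted p = 0.00748) for 2 h of washout against degrader 2 h, and Ifngr1, at -0.20 (adjusted p = 0.0414) for 2 h of washout against DMSO. Leaving out 1 library moved the counts of all genes behind these percentages, from 3091 to 0 at 30 min, from 2198 to between 614 and 782 at 2 h against degrader 2 h, and from 4897 to 2550 at the lowest against DMSO.

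In the A485 series 7 members were tested. The degrader left 2 higher at 15 min, when 10.9% of all 12597 genes tested were called higher and 5.8% lower. It left 2 higher at 30 min, against 11.3% of genes higher and 9.23% lower, and 4 higher and 1 lower at 1 h, against 14.7% of genes higher and 10.9% lower. The medians were 0.22, 0.23 and 0.50. A485 lowered 6 of 7 at every time, with Il4ra the exception (called higher at 15 min). The background was 25.8% of genes higher and 29.3% lower at 15 min, 27.1% of genes higher and 31% lower at 30 min and 29.4% of genes higher and 33.2% lower at 1 h. The members' medians with A485 were -0.9991, -1.64 and -1.60.

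On top of A485 the degrader left 2 of 7 higher at each time. The background was 0.857% of genes higher and 0.0238% lower at 15 min, 1.31% of genes higher and 0.5% lower at 30 min and 4.56% of genes higher and 2.34% lower at 1 h. The members' medians were 0.085, 0.33 and -0.04. The interaction was called with limma for 0 of 7 members at 15 min, where 0 had an unadjusted p under 0.05, and for 0 at 30 min, where 1 did. edgeR and DESeq2 also called 0 at both times. At 1 h 1 was called lower by each tool. The background of the interaction was 1.91% of genes higher and 3.41% lower at 15 min, 3.69% of genes higher and 4.51% lower at 30 min and 4.99% of genes higher and 6.54% lower at 1 h.

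LBH589 split the members. At 30 min 4 of 7 were lower and 1 higher, when 17.8% of all 12553 genes tested were called higher and 21.9% lower. At 1 h 4 were lower and 3 higher, against 32.4% of genes higher and 34.6% lower. The medians were -0.12 and -0.16. For the LBH589 washout, 2 of 7 were higher at 1 h than at 30 min, against 13.2% of genes higher and 10.1% lower, with a median of 0.25.

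**Figure D5:**
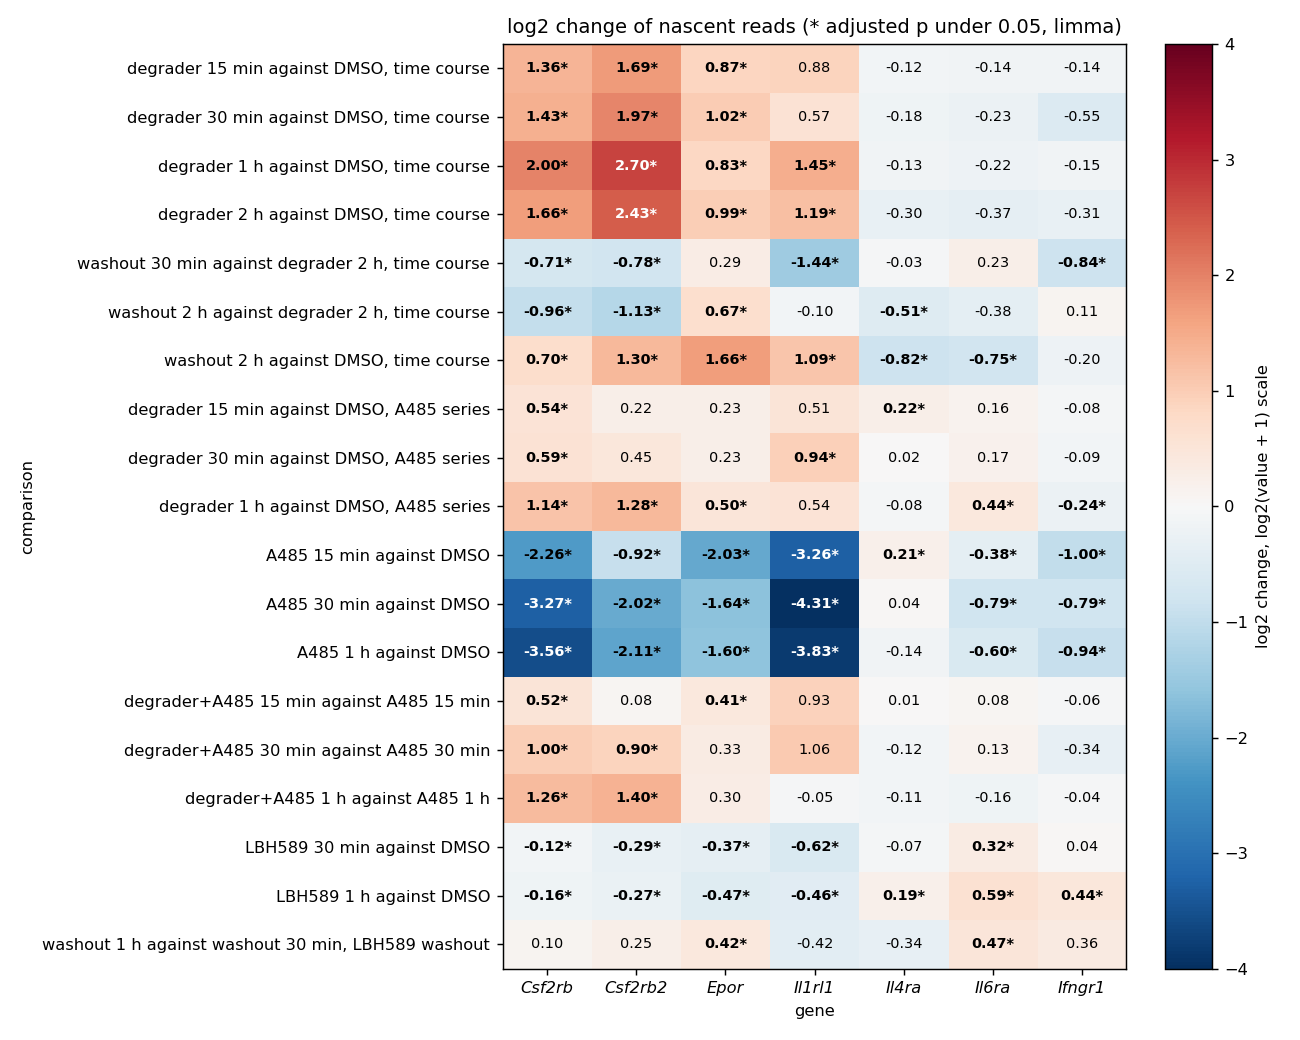
Log2 changes of 7 cytokine receptor genes (columns) in 19 comparisons (rows), coloured from lower (blue) to higher (red); bold with an asterisk marks an adjusted p under the threshold with limma. The A485 comparisons hold the lowest values, down to -4.31 for Il1rl1 at 30 min, and the degrader comparisons of the time course the highest, up to 2.70 for Csf2rb2 at 1 h.

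Some genes outside the group had nearly the same pattern over the 10 groups of the A485 series. By Pearson's r of group means on the log2(value + 1) scale, those nearest to Csf2rb were Adgrg1 and Lyl1 (both 0.996) and Gmpr (0.995). Those nearest to Csf2rb2 were Fam117a (0.991), Phactr4 (0.979) and Gypc (0.977), and to Epor Mocs1 and Ormdl3 (both 0.995) and Tmem140 (0.993). Il1rl1 was nearest to Minpp1 and Zbtb25 (both 0.992) and AW046200 (0.991). Il4ra was nearest to Itpr3 (0.959), Wdr1 (0.954) and Ehd4 (0.945), Il6ra to Fam3b (0.993) and B3galnt2 (0.991), and Ifngr1 to 5430427O19Rik (0.993), Vdac2 and Ppp6r1 (both 0.991). The range in log2 units can differ widely at the same r: Il1rl1 spanned 5.25 and Zbtb25 0.813. Among the members, r was 0.97 between Csf2rb and Csf2rb2 and between Csf2rb and Il1rl1, and 0.2 between Csf2rb and Il4ra. All these points share libraries and depths, so r is given as a description.

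The other genes of the pathways were read from lists of ligands, further receptors, JAK and STAT signalling and its feedback. The further receptors include Tfrc, the transferrin receptor gene, which is not a cytokine receptor and is also one of the erythroid markers. Of 13 ligands 2 reached the minimum in the A485 series, Il1b and Il4. After 1 h of degrader in the A485 series, 7 of 22 tested further receptors rose and 1 fell, led by Il31ra at 1.53 and Il9r at 1.04 on the log2 scale, while Il27ra fell by 0.20. Of 22 JAK kinases, STATs and adaptors 3 rose and 2 fell, among them Stat5b, the STAT that signals below Epor and the beta chains, at 0.24, and the adaptor Grb2 at -0.26. Of 18 feedback genes and STAT targets 1 rose (Bcl2l1, 0.37) and 6 fell, with the inhibitor Socs1 at -0.76 and the kinase gene Pim2 at -0.67. The medians of the 3 lists were 0.14, 0.011 and -0.17. Over all genes, 14.7% were called higher and 10.9% lower in this comparison. At degrader 2 h in the time course, 3 of 25 further receptors rose and 2 fell. Of the JAK and STAT list 1 of 21 rose and 3 fell, and of the feedback list 2 of 19 rose and 2 fell. The medians there were -0.026, -0.071 and -0.084, against 6.77% of genes higher and 2.63% lower. At 30 min 5 further receptors rose and 4 fell, and in each of the other 2 lists 1 rose and 4 fell, against 8.69% of genes higher and 5.17% lower.

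A485 for 1 h lowered most of these genes. Of the further receptors 14 of 22 fell and 2 rose, with Il18r1 at -2.89 and Il9r at -2.77, and Il6st, the shared signalling chain of the IL-6 family, up at 0.46. Of the JAK and STAT list 12 of 22 fell and 7 rose, with the phosphatase gene Ptpn6 at -2.15 and Stat3 at -1.73, and Stat4 at 1.59. Of the feedback list 12 of 18 fell and 4 rose, led by Cish at -3.72 and Pim1 at -3.12, both STAT5 target genes. The medians were -0.52, -0.21 and -0.64, while 29.4% of all genes were called higher and 33.2% lower. Both ligands tested fell (Il1b by 1.91 and Il4 by 1.25).

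With 1 h of LBH589, 11 of 22 further receptors fell and 5 rose, with Crlf2 at -1.24 and Ifngr2, the partner chain of Ifngr1, at 0.56. Of the JAK and STAT list 10 of 21 rose and 8 fell, and of the feedback list 5 of 19 rose and 8 fell, with Irf1 at 0.75 and Pim1 at -0.81. The medians were -0.11, 0.082 and -0.063, while 32.4% of all genes were called higher and 34.6% lower. At 2 h of washout against degrader 2 h in the time course, 2 of 25 further receptors rose (Il31ra, 2.48, and Il2rg, 0.74) and 2 fell (Il18r1, -0.70, and Il15ra, -0.35). Of the JAK and STAT list 2 of 21 rose, Myd88 (0.86) and Irak1 (0.35), which signal below Il1rl1, and 1 fell, Stat5b (-0.37). Of the feedback list 3 of 19 rose, among them Osm (0.68). Over all genes, 8.98% were called higher and 8.3% lower in this washout comparison. These lists were chosen with earlier results of these data known, and their counts are read against the percentages above.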

How the data were processed

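PRO-seq reads were processed by the authors. Tools named without a role are DESeq2 1.46.0, featureCounts 2.0.1, Bowtie2 2.2.2, HOMER, bedtools and SAMtools 1.16.1, with genome builds dm3 and mm39, per the submitters' processing notes. The deposited values are a signal per transcript, gene counts divided by a size factor per library. Whole reads were recovered from their steps (100% of values whole, tolerance 0.1), and their sum over 1 transcript per symbol is the depth of a library, which sets counting error only.

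The main test was limma 3.58.1 (R 4.3.3) on log2(value + 1), over all groups of a table, on genes with a mean of at least 10, with 1 transcript per symbol, a trended prior and Benjamini-Hochberg adjustment over all genes of a comparison (threshold 0.05). Adjusted p-values come from this fit unless edgeR 4.0.16 or DESeq2 1.42.0 on recovered reads is named. Each table was fitted apart. The scripts were tested on simulated data. Members and gene lists were chosen with earlier results of these data known. The text names every member. Per pathway list and comparison it names up to 2 called genes in each direction, and per member the 3 genes of highest Pearson's r, of which 1 is not reported here. Per-sample columns not used numbered 2, and 1 was empty. The 1 h washout of the time course, with 1 library, was not tested. Sites called by dREG were not analysed here. Alternatives were another pseudocount (8), no filter, a minimum mean of 50, TMM scaling, edgeR, DESeq2, only the compared groups, a replicate block, leaving out each library, and leaving out doubted or conflictingly labelled libraries.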

Additional observations from a re-analysis of the deposited data

Results flagged for a closer look

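The interaction of degrader and A485 on Il6ra, the IL-6 receptor gene, stood out because the degrader's change differed between cells with and without A485 in the fit of all groups. At 1 h it was -0.60 on the log2 scale (limma, adjusted p = 0.0265), from 0.44 without A485 to -0.16 with it. The call ended with only the compared groups in the fit (adjusted p = 0.0743). It also ended when certain single libraries were left out (0.0511 to 0.091).

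Il6ra also stood out between experiments, because at 30 min and at 1 h every degrader library lay below the DMSO mean in the time course and above it in the A485 series. The log2 change of the time course minus that of the A485 series was -0.40 at 30 min and -0.65 at 1 h. The tables were normalised apart and this difference was not tested.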

How the results depend on the processing

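Of 161 tests of members, 77 were called, and 55 of these were called under every alternative run; no called value changed sign. The number of members called moved as follows. In the time course, leaving out the libraries in doubt gave 5 for 3 at degrader 30 min and 7 for 4 at degrader 2 h, where fitting only the compared groups also gave 7. For the degrader in the A485 series, the 2 calls at 15 min became 1 without the filter or with TMM scaling and 4 with edgeR, the compared groups or the replicate block, and the 2 calls at 30 min became 4 with those last 3. For both agents against A485, the 2 calls became 1 at 15 min without the filter and 1 at 30 min with edgeR, DESeq2, the compared groups or the replicate block. The interaction at 30 min had 1 call for 0, that of Csf2rb, with a minimum mean of 50 or the compared groups. At 1 h it had 0 for 1 with the compared groups (edgeR and DESeq2 called 1, and 1 had an unadjusted p under 0.05). In the LBH589 washout, 2 became 1 without the filter or with the replicate block. Leaving out 1 library gave 0 to 0 for the 4 calls of washout 30 min (where edgeR and DESeq2 on all libraries called 4, and 4 had an unadjusted p under 0.05), 1 to 2 for the 4 of washout 2 h against degrader 2 h, 1 to 1 for degrader 15 min in the A485 series, 1 to 2 and 1 to 3 for both agents at 15 and 30 min, 0 to 1 for the interaction at 1 h and 0 to 4 for the LBH589 washout. The causes were not tested. Numbers did not pair the samples: same-numbered libraries had median correlations of -0.0286 to 0.00861 of their deviations, and 8 of 16, 6 of 28, 2 of 6 and 1 of 6 libraries correlated best with their own number. The replicate block kept 38 of 42 called tests and added 6 of 61; it ended the calls of Il1rl1 at degrader 2 h in the time course (adjusted p = 0.109), Ifngr1 at washout 30 min (0.074), Csf2rb2 with both agents at 30 min (0.373) and Il6ra in the LBH589 washout (0.0515).

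Counts over all genes moved too. Without the libraries in doubt they were 3536 for 881 (degrader 15 min), 2679 for 1764 (30 min), 3843 for 1432 (1 h), 3951 for 1195 (2 h), 6480 for 3091 (washout 30 min), and 5472 for 2198 and 7522 for 4897 (washout 2 h against degrader 2 h and DMSO). With only the compared groups they were 508 for 1764, 3439 for 1432, 3218 for 1195, 5939 for 3091 and 6285 for 2198 in these, 3534 for 2098 at degrader 15 min in the A485 series, and 1227 for 670 for the interaction at 15 min. Without conflicting labels, degrader 30 min gave 915 for 1764. For both agents against A485 at 30 min, 228 became 96 (edgeR), 131 (DESeq2), 102 (compared groups) and 69 (replicate block), at 1 h 869 became 578 (edgeR), 390 (compared groups) and 392 (replicate block), and at 15 min 111 became 175 (replicate block). Leaving out 1 library moved these by over 1.5 times under at least 1 choice of library: washout 30 min 3091 to 0, washout 2 h 2198 to 614 against degrader 2 h and 4897 to 2550 against DMSO, degrader 15 min 881 to 587, 30 min 1764 to 972 and 2 h 1195 to 547 in the time course, degrader 15 min 2098 to 1398 in the A485 series, both agents 111 to 71, 228 to 115 or 447 and 869 to 524, the interaction 670 to 414 at 15 min and 1033 to 498 at 30 min, and the LBH589 washout 2879 to 861 or 4492. Depth limits Csf2ra everywhere, and Il1rl1 and Csf2rb2 under A485.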
